A study of Mus musculus with 10 samples.

Results

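Mouse CD4+ T cells labelled as central memory (CM) cells of culture day 25 were compared with naïve CD4+ T cells on 4 Affymetrix mouse genome arrays, 2 for each group, out of the 10 arrays in the series. The groups were taken from the array titles and source names, and all 18193 genes with a probe set of a single gene symbol were tested. Naïve CD4+ T cells, sorted from the spleen of wild-type C57BL/6 mice as CD44-, entered a co-culture with IL-2 and with γ-irradiated B lymphoma cells that carry LMP1 and LMP2A, membrane proteins of Epstein-Barr virus, and that were added again each week. The CM cells are called induced virus-specific memory cells by their source name, and CD4+ effector memory (EM) cells of day 25, also 2 arrays, came from the same kind of culture. In flow cytometry of this culture the study counted central memory cells among CD44+ cells, while the sort that gave the RNA of the CM arrays is not given in the sources used here. The CM and EM cells had met the lymphoma cells and IL-2 and the naïve cells had not, so culture and cell state cannot be told apart.

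The labels hold entries that do not match this design. A Foxo1 status reads wt+/mt+ for both naïve arrays, wt-/mt+ for CM array 1 and for both EM arrays, and wt+/mt- for CM array 2, while the methods describe wild-type animals. A description names germinal center B cells and the design text a gene-edited lymphoma line. These entries were set aside. Neither the age of the mice nor whether the arrays of a group come from separate mice is stated, so the p-values cover no more than the spread of these arrays, which may be technical.

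Naïve CD4+ T cells travel between blood and lymph nodes and rest until they meet antigen. Foxo1, Klf2, Lef1 and Tcf7 hold them in this state and keep on the genes of the homing molecules CCR7 and S1PR1 and of the IL-7 receptor. Activated cells divide, take up glucose and switch on effector regulators such as T-bet, Blimp-1 and Eomes, which in cytotoxic cells go with granzymes. Central memory cells are known for keeping CCR7, and effector memory cells for losing it and for rapid release of cytokines and granules. *Tcf7* had no probe set with a single symbol and was not analysed here.

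The labelled lineage was checked first. *Cd4*, the co-receptor of helper cells, read 11.87 and 11.89 in the naïve arrays and 11.61 and 11.50 in the CM arrays on the log2 scale of the deposited signals, and *Cd8b1*, of cytotoxic T cells, read 5.63 and 5.30 against 5.21 and 5.57. All 14 measured T cell identity genes were at 6 or above on each of these 4 arrays, where 6 is a round limit used here, since differences of dimmer probe sets are compressed, and in CM cells 6 of them fell and 1 rose. The standard errors (SE) of the fit were widened by the difference between the CM arrays and, outside the groups compared, by that between the naïve CD8+ arrays. At least 2-fold, 1253 genes differed between the CM arrays, against 319 between the naïve CD4+ arrays, 487 between the EM arrays and 780 between the naïve CD8+ arrays. Over genes with a mean of 6 or above the median difference was 0.27 for both the CM and the naïve CD8+ pair. The Gapdh control probe sets, read as the 3′ end minus the 5′ end to judge RNA integrity, gave 2.49 and 2.42 in the naïve arrays, 1.72 and 1.13 in the CM arrays and 1.19 and 1.31 in the EM arrays on the log2 scale, and the β-actin controls gave 1.46 and 1.24, 2.10 and 1.59, and 1.48 and 1.49. Their part in the results was not tested.

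Of the 18193 genes, 4227 (23.2%) passed an adjusted p of 0.05 between CM and naïve cells in limma. The CM signal was higher for 2448 genes (13.5%) and lower for 1779 (9.78%). Counts in the gene lists below are to be read against these shares. At least 2-fold, 1653 rose and 991 fell. At least 8-fold, 422 rose and 78 fell. With the brightest probe set of each gene the median change over all genes was 0.08, and 57.9% of the calls were higher in CM cells. When the probe sets were averaged instead, 2283 genes were higher and 2100 lower. The share of higher calls was then 52.1%, so the excess of rises depended in part on the probe set chosen. Fewer genes were called when either naïve array was left out, and the loss was smaller when either CM array was. All groups share 1 estimate of the spread, and what this difference reflects was not tested. With only the 4 arrays in the fit there were 1695 higher and 1151 lower. Here and below, where 1 array of a group is left out, the lone array left is assumed to vary like the other groups. Between EM and CM cells 1005 genes (5.52%) passed, 707 (3.89%) higher and 298 (1.64%) lower in EM cells. This second comparison shares the CM arrays with the first, so its values are given side by side only. In bulk RNA, fewer cells of a type and less RNA per cell cannot be told apart.

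**Figure D1:**
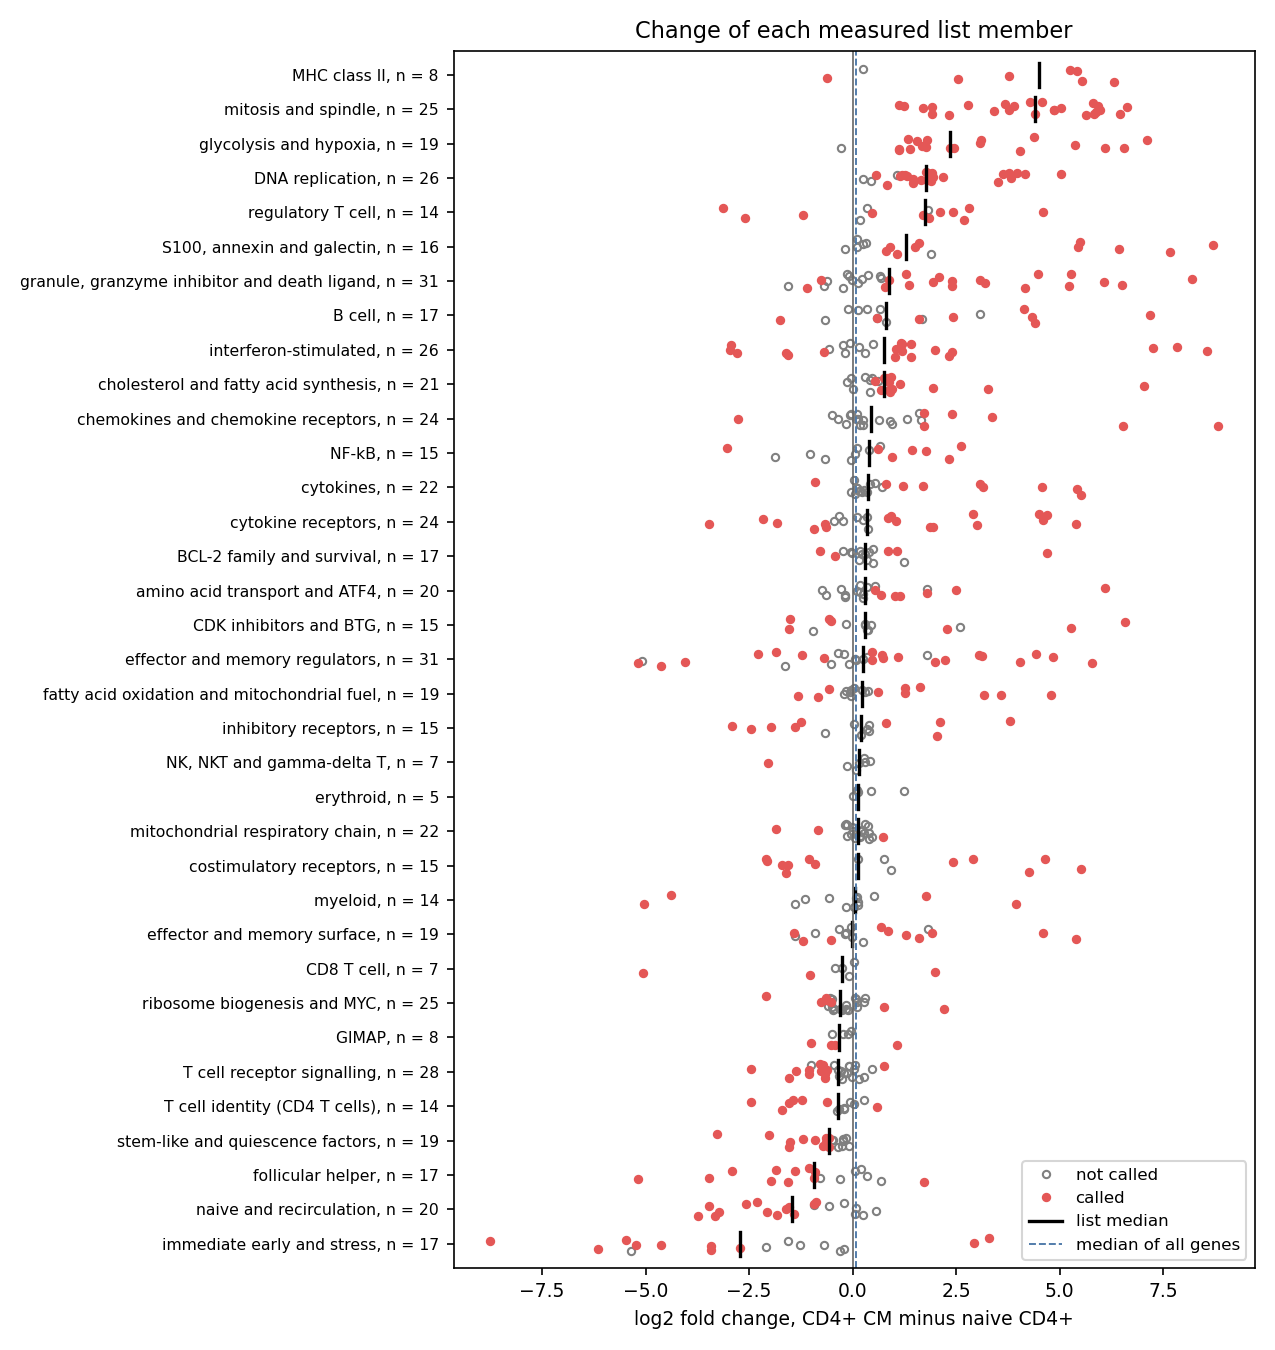
Log2 fold change of CM against naïve CD4+ cells (x axis) for each measured member of the 35 gene lists (rows, ordered by median, with n the number of measured genes); filled points passed the adjusted p of 0.05, open points did not, thick bars are list medians and the dashed line is the median of all genes, 0.08. List medians run from 4.51 for MHC class II to -2.73 for immediate early and stress genes, and all 25 mitosis genes lie to the right of 0.

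Genes of the resting, recirculating state fell in part. Of 20 measured naïve and recirculation genes 13 fell and none rose, with a median change of -1.47 on the log2 scale. Of 19 stem-like and quiescence factors 11 fell and none rose, with a median of -0.58, and the other 8 did not pass the test. Fewer of the 19 were called as falls when either naïve array was left out. The lymph node homing receptor *Ccr7* read 10.87 and 10.81 in naïve cells, 10.87 and 10.98 in CM cells and 10.25 and 10.38 in EM cells. The change from naïve to CM was 0.08 (SE 0.26, adjusted p = 0.859), which did not pass. Both CM arrays lay above both naïve arrays, but barely, with 10.872 on CM array 1 and 10.866 on naïve array 1. *Lef1*, the partner of Tcf7 in naïve and stem-like cells, read 12.932 and 13.001 against 12.67 and 12.81 (-0.23, SE 0.14, adjusted p = 0.307). *Bach2*, a repressor that restrains effector genes, read 12.13 and 11.997 against 11.98 and 11.96 (-0.10, SE 0.15, adjusted p = 0.724). In EM cells *Bach2* was lower than in CM cells by 1.30 (SE 0.15, adjusted p = 0.00269), at 10.51 and 10.82. The chromatin organizer *Satb1* lay at 12.73 and 12.74 in naïve, 12.43 and 12.59 in CM and 11.89 and 12.01 in EM cells, without a call in either comparison.

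*Klf2*, which turns on the exit receptor *S1pr1*, lay between the naïve and the EM level. It read 9.55 and 9.67 in naïve, 8.40 and 8.98 in CM and 5.92 and 6.74 in EM cells. CM against naïve missed the threshold (-0.92, SE 0.29, adjusted p = 0.0528), while EM against CM passed (-2.36, SE 0.29, adjusted p = 0.00321). *S1pr1* itself fell from 9.14 and 9.21 to 7.80 and 7.73, a change of -1.41 (SE 0.19, adjusted p = 0.00134), and was lower again in EM cells, at 5.80 and 5.22. The survival receptor *Il7r* fell from 12.9998 and 12.87 to 10.99 and 11.23, a change of -1.82 (SE 0.14, adjusted p = 5.39e-05), and read 11.56 and 11.57 in EM cells. *Il6ra*, the IL-6 receptor chain, stepped down between all 3 groups, with 10.54 and 10.48 in naïve, 7.23 and 6.87 in CM and 3.33 and 3.24 in EM cells. Its change was -3.46 from naïve to CM (SE 0.17, adjusted p = 6.89e-06) and -3.76 from CM to EM (SE 0.17, adjusted p = 2.45e-05). *Rasgrp2*, an activator of integrin signalling, and *Cd27*, a costimulatory receptor, fell by 2.58 and by 2.08 in CM cells. *Foxo1* read 12.36 and 12.21 against 12.18 and 11.68 on its brightest probe set (-0.35, SE 0.18, adjusted p = 0.206), which did not pass.

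The probe set chosen matters for several of these genes. Without probe sets that can match several transcripts, *Foxo1* fell by 0.95 (adjusted p = 0.0038), and with the mean of all probe sets *Lef1* fell by 0.61 (adjusted p = 0.015) and *Il6ra* by 2.14. The *Klf2* change passed without CM array 2 (-1.22, adjusted p = 0.033) and without either EM array, and *Foxo1* passed without CM array 1 (-0.61, adjusted p = 0.03).

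**Figure D2:**
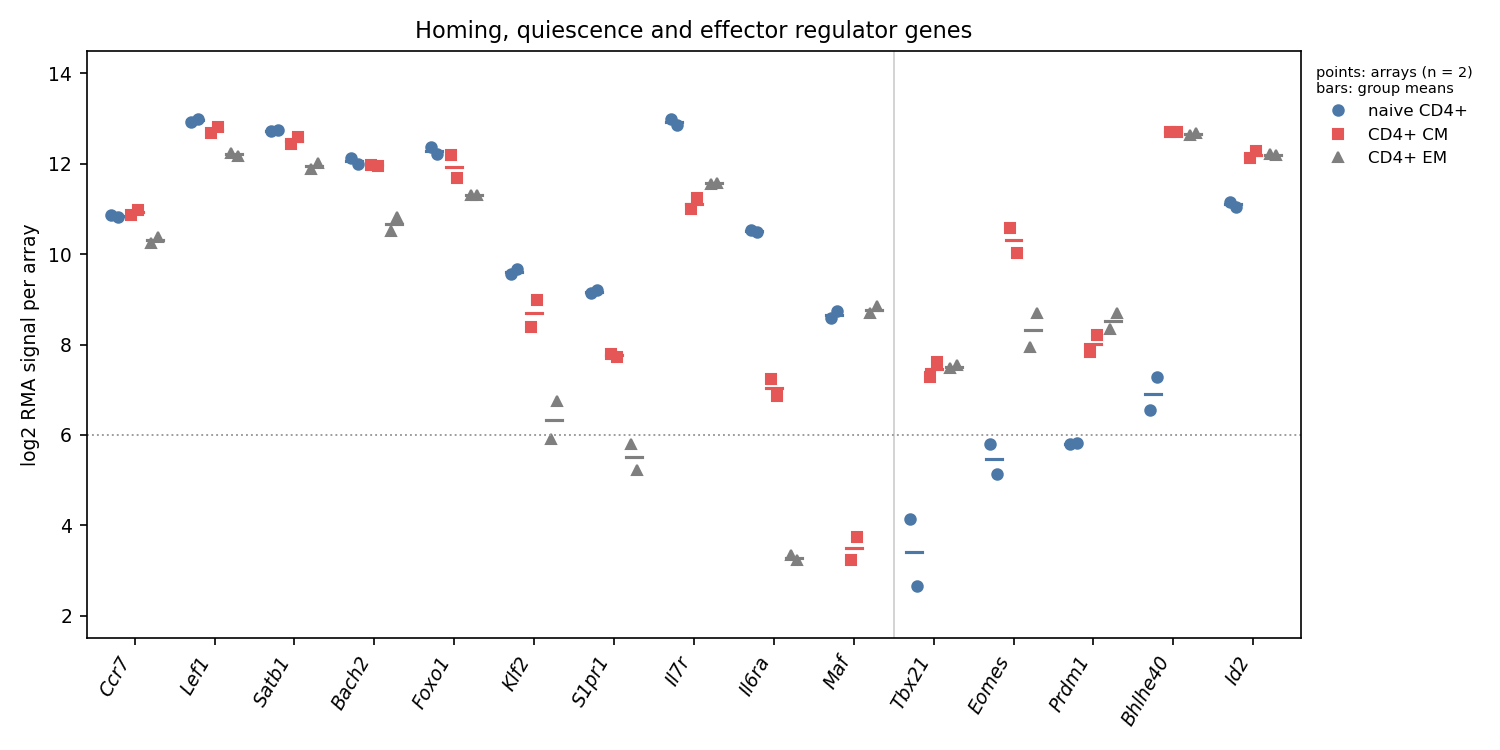
Log2 signal per array (y axis) of homing, quiescence and effector regulator genes (x axis) in naïve CD4+, CM and EM cells, 2 arrays a group as points with the group mean as a bar; the dotted line is the limit of 6. Ccr7, Lef1, Satb1 and Bach2 of CM cells lie close to the naïve arrays, Il7r, Il6ra and S1pr1 lie lower, and Tbx21, Eomes, Prdm1 and Bhlhe40 lie above the naïve arrays, while Maf is low in CM cells only.

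Regulators of effector differentiation moved in both directions. Of 31 measured effector and memory regulators 13 rose and 7 fell in CM cells, and 4 fell without CM array 1 and 3 without either naïve array. *Eomes*, the T-box relative of T-bet, read 5.80 and 5.14 in naïve cells and 10.58 and 10.04 in CM cells, a rise of 4.84 (SE 0.32, adjusted p = 2.98e-05). EM cells, at 7.94 and 8.70, were below CM cells by 1.99 (SE 0.32, adjusted p = 0.0119), a call that was lost without EM array 1 (-1.61, adjusted p = 0.069). *Tbx21*, the gene of T-bet, rose from 4.14 and 2.66 to 7.29 and 7.61, a change of 4.05 (SE 0.40, adjusted p = 0.000239), and lay at 7.47 and 7.56 in EM cells. *Prdm1*, the gene of Blimp-1, rose by 2.22 (SE 0.25, adjusted p = 0.000444), from 5.79 and 5.81 to 7.82 and 8.22. *Bhlhe40*, a repressor of activated T cells, rose by 5.79 to 12.70 and 12.71, and *Runx3*, a partner of T-bet, by 1.998 to 10.47 and 10.43. *Id2*, an inhibitor of E proteins, rose by 1.10 (SE 0.17, adjusted p = 0.00246), from 11.16 and 11.05 to 12.13 and 12.27, but read -0.17 (adjusted p = 0.88) without probe sets that can match several transcripts. *Id3*, of the same family, fell by 0.66 (adjusted p = 0.0231), but not without CM array 2, naïve array 1 or naïve array 2 (-0.54, -0.68 and -0.63, adjusted p = 0.097, 0.087 and 0.11).

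*Maf*, an activator of IL-4, IL-10 and IL-21, was low on the CM arrays only. It read 8.58 and 8.75 in naïve, 3.24 and 3.74 in CM and 8.69 and 8.86 in EM cells. The change to CM was -5.17 (SE 0.39, adjusted p = 5.36e-05) and that from CM to EM was 5.28 (SE 0.39, adjusted p = 0.000297), or -2.51 and 2.63 with the mean of its probe sets. *Tox*, known from exhausted and follicular helper cells, fell by 4.05 (SE 0.42, adjusted p = 0.000304), and *Bcl6*, the follicular helper repressor, by 1.86 (SE 0.21, adjusted p = 0.000529). *Myb* fell by 1.22, without a call when either naïve array was left out (-1.26 and -1.17, adjusted p = 0.081 and 0.10) and by 0.69 without CM array 1. *Irf4*, an early target of T cell receptor signals, read 8.81 and 8.57 in naïve, 10.58 and 10.37 in CM and 12.02 and 12.06 in EM cells. Its change of 1.78 did not pass in the fit of all arrays (SE 0.69, adjusted p = 0.107) and passed without either naïve CD8+ array (adjusted p = 0.00024). *Ahr* and *Zeb2*, factors of effector cells, read 5.54 and 5.31, and 2.69 and 2.74, in CM cells, and were higher in EM cells by 3.86 and 2.47.

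Some granule genes rose steeply in CM cells and others were high in EM cells only. Of 31 measured granule, granzyme inhibitor and death ligand genes 17 rose and 2 fell in CM cells, and 1 fell without CM array 1 or either CD8+ EM array, none without CM array 2 or either naïve array, and 4 without either naïve CD8+ array. *Gzmb*, the granzyme that cleaves caspases, read 4.04 and 3.29 in naïve cells and 11.86 and 11.84 in CM cells, a rise of 8.19 (SE 0.23, adjusted p = 6.18e-07). *Nkg7*, a granule membrane protein needed for exocytosis, rose from 5.74 and 5.20 to 12.06 and 11.89, a change of 6.51 (SE 0.22, adjusted p = 1.1e-06). *Gzmc* rose by 6.07 (SE 0.39, adjusted p = 2.29e-05) to 10.22 and 10.11 and was higher again in EM cells by 3.43, at 13.62 and 13.58. *Gzma*, the tryptase of killer cells, was different: it read 5.68 and 5.60 in naïve, 3.99 and 4.18 in CM and 12.54 and 12.24 in EM cells. EM cells exceeded CM cells by 8.30 for *Gzma* (SE 0.87, adjusted p = 0.00163). *Gzmd*, *Gzmf* and *Gzmg* lay at or below 5.05 in both CM arrays and were higher in EM cells by 5.38, 4.72 and 6.01. *Gzmc* to *Gzmg* are close copies whose probe sets may share signal.

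*Prf1*, the gene of perforin, which opens the target membrane for granzymes, did not follow *Gzmb*. It read 7.42 and 7.31 in naïve, 6.67 and 5.83 in CM and 6.17 and 6.04 in EM cells, a fall of 1.11 in CM cells (SE 0.27, adjusted p = 0.0211). That call was lost without CM array 2 (-0.69, adjusted p = 0.068) or without naïve array 1 or 2 (-1.06 and -1.17, adjusted p = 0.10 and 0.081). The death ligand *Fasl* rose by 2.39 (SE 0.34, adjusted p = 0.00146), from 7.19 and 7.26 to 9.74 and 9.50. The granzyme inhibitors *Serpinb9* and *Serpinb6b* rose by 3.19 and 4.47, to 11.43 and 11.42, and to 12.08 and 12.12.

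**Figure D3:**
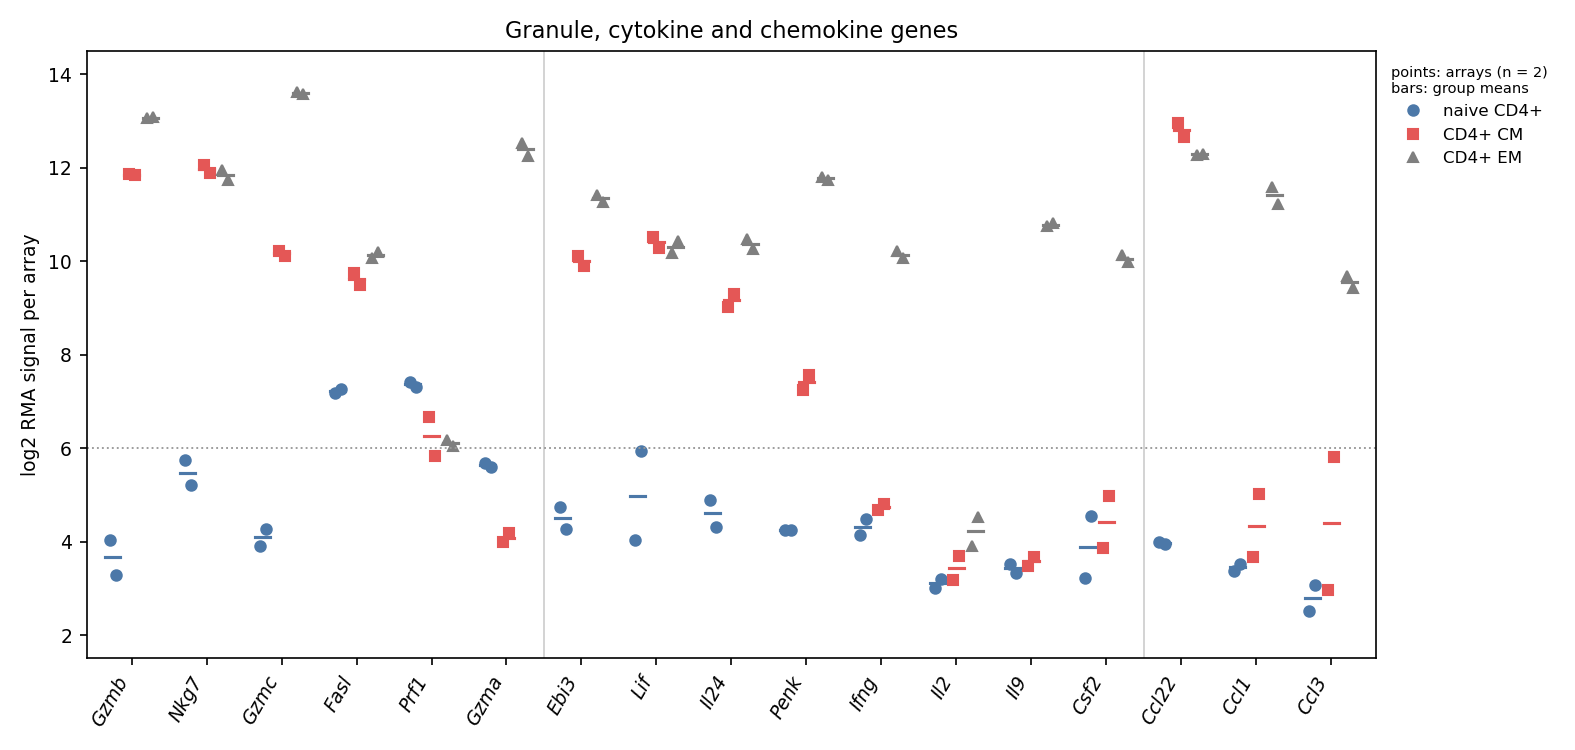
Log2 signal per array (y axis) of granule genes (left), cytokine genes (middle) and chemokine genes (right) on the x axis in naïve CD4+, CM and EM cells, 2 arrays a group as points with the group mean as a bar; the dotted line is the limit of 6. Gzmb, Nkg7, Gzmc, Ebi3, Lif, Il24 and Ccl22 of CM cells lie far above the naïve arrays, while Gzma, Ifng, Il9, Csf2 and Ccl1 lie high in EM cells only.

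Some cytokine genes rose in CM cells and others were higher in EM cells. Of 22 measured cytokine genes 8 rose and 1 fell in CM cells, and 12 were higher and 1 lower in EM than in CM cells, or 7 higher without either EM array. The fall, of *Il16* (-0.90, adjusted p = 0.0392), was lost without CM array 2, either naïve array or any 1 EM array. *Ebi3*, whose product pairs into IL-27, rose from 4.74 and 4.27 to 10.11 and 9.90, a change of 5.50 (SE 0.26, adjusted p = 5.24e-06). *Lif*, a cytokine of the IL-6 family, rose by 5.42 (SE 0.69, adjusted p = 0.000885) to 10.52 and 10.28, or by 2.93 with the mean of its probe sets. *Il24*, an IL-10 family member, rose by 4.56 to 9.03 and 9.30, and *Osm*, the gene of oncostatin M, by 3.07 to 10.01 and 9.77. *Penk*, the enkephalin precursor, took an intermediate place at 4.25 and 4.25 in naïve, 7.25 and 7.56 in CM and 11.81 and 11.74 in EM cells. *Ifng*, the gene of interferon-γ, read 4.14 and 4.49 in naïve, 4.67 and 4.80 in CM and 10.22 and 10.06 in EM cells. The EM excess of *Ifng* was 5.41 (SE 1.04, adjusted p = 0.0238) and lost its call when any CM or EM array was left out, with values between 5.33 and 5.49. *Il9*, *Csf2* and *Il21* read at most 4.98 in CM cells and were higher in EM cells by 7.20, 5.63 and 3.74. *Il2* read 3.19 and 3.70 in CM cells, with no call in either comparison.

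Of 24 measured chemokine and chemokine receptor genes 6 rose and 1 fell in CM cells, and 8 were higher in EM cells. Without naïve array 1 there were 3 rises, and without EM array 1 there were 5 genes higher in EM cells. *Ccl22*, which attracts CCR4+ cells, rose from 3.99 and 3.95 to 12.95 and 12.65, a change of 8.83 (SE 0.18, adjusted p = 1.78e-07), and read 12.26 and 12.30 in EM cells. *Ccr2*, the receptor of monocyte chemoattractant proteins, rose by 6.54 (SE 0.38, adjusted p = 1.33e-05) to 11.49 and 11.15, or by 3.22 with the mean of its probe sets. *Ccl5*, a chemokine of effector T cells, differed between the CM arrays, at 8.14 and 6.63, and rose by 2.40 (SE 0.41, adjusted p = 0.00423). *Ccl1* and *Ccl3* read 3.66 and 5.02, and 2.97 and 5.81, in the CM arrays and were higher in EM cells by 7.07 and 5.15. The *Ccl3* difference was not called without EM array 1 (5.02, adjusted p = 0.061). The tissue receptor *Cxcr6* was called at 1.71 (adjusted p = 0.0268) but not without CM array 1 (1.12, adjusted p = 0.11) or either naïve array (1.88 and 1.54, adjusted p = 0.078 and 0.14).

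Receptors for IL-2 were among the clearest rises. *Il2rb*, the shared β chain for IL-2 and IL-15, read 6.67 and 6.81 in naïve and 12.21 and 12.06 in CM cells, a change of 5.40 (SE 0.15, adjusted p = 4.91e-07). *Il2ra*, the high affinity chain, rose by 4.59 (SE 0.25, adjusted p = 9.81e-06) to 11.15 and 11.25. Of 24 measured cytokine receptor genes 11 rose and 6 fell, or 3 fell without naïve array 1. *Il18rap*, the IL-18 receptor accessory chain, rose by 4.70, the decoy receptor *Il1r2* by 4.50 and *Ifngr1*, of the interferon-γ receptor, by 1.87. *Il12rb1* and *Il12rb2*, the chains of the IL-12 receptor, rose by 3.01 and 1.95. The falls include *Il7r*, *Il6ra* and *Tgfbr3*, a co-receptor of TGF-β, which read 11.06 and 11.03 in naïve and 8.76 and 9.02 in CM cells (-2.16, SE 0.16, adjusted p = 5.65e-05).

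Of 16 measured S100, annexin and galectin genes 10 rose and none fell. *S100a6*, a small calcium-binding protein, rose from 3.11 and 3.57 to 12.09 and 11.98 (8.69, SE 0.62, adjusted p = 4.09e-05), and *Lgals3*, the gene of galectin-3, from 4.59 and 4.49 to 12.18 and 12.21 (7.65, SE 0.32, adjusted p = 3.29e-06). *Anxa2* rose by 6.43, or by 2.61 with the mean of its probe sets, of which the others are dim. *Cd44*, a hyaluronan receptor, rose by 0.86 (SE 0.18, adjusted p = 0.0112), from 9.68 and 9.43 to 10.63 and 10.21. The naïve cells were sorted as CD44-, so this is a check and no finding, and the call was lost without naïve array 2 (0.74, adjusted p = 0.08).

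OX40, 4-1BB and GITR, costimulatory receptors of the TNF receptor family, rose, while CD28 and CD27 fell. Of 15 measured costimulatory genes 5 rose and 7 fell. *Tnfrsf4*, the gene of OX40, rose from 6.65 and 6.51 to 12.01 and 12.16 (5.50, SE 0.14, adjusted p = 4.2e-07), and *Tnfrsf9*, the gene of 4-1BB, from 8.32 and 8.37 to 12.57 and 12.62 (4.25, SE 0.15, adjusted p = 1.38e-06). The OX40 ligand *Tnfsf4* rose by 4.65 and *Cd70*, the CD27 ligand, by 2.92. *Cd28* fell from 11.54 and 11.56 to 10.03 and 9.65 (-1.71, SE 0.19, adjusted p = 0.000384), and *Icos* fell by 1.06, but lay at 11.17 and 11.23 in EM cells against 9.46 and 9.87 in CM cells.

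Of 15 measured inhibitory receptor and ligand genes 4 rose and 5 fell in CM cells, and 7 were higher and 1 lower in EM than in CM cells. *Cd200*, a ligand that dampens myeloid cells, read 9.30 and 9.19 in naïve, 6.63 and 6.02 in CM and 10.38 and 10.27 in EM cells, low in CM cells only. Its changes were -2.91 to CM (SE 0.22, adjusted p = 5.47e-05) and 3.99 to EM (SE 0.22, adjusted p = 6.3e-05). *Cd5*, a brake on T cell receptor signals, fell by 2.45 and *Btla* by 1.97. The ligands *Pdcd1lg2* and *Cd274*, of PD-1, rose by 3.80 and 2.04. *Havcr2* and *Cd244a*, receptors of chronically stimulated cells, read at most 4.52 in CM cells and were higher in EM cells by 3.71 and 6.36.

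Of 17 measured follicular helper genes 10 fell and 1 rose (*Cxcr5*, by 1.72, lost without CM array 2 or either naïve array), with a median of -0.92, and of 14 measured regulatory T cell genes 8 rose and 3 fell, with a median of 1.75. *Foxp3*, the defining factor of regulatory T cells, read 5.72 and 6.24 in naïve and 4.96 and 4.62 in CM cells, a fall of 1.19 (SE 0.26, adjusted p = 0.0118) that was not called without CM array 2 (-1.02, adjusted p = 0.057) or naïve array 2 (-0.93, adjusted p = 0.083). The risen members of the regulatory list are led by *Il2ra* and by *Nt5e*, the gene of the ectoenzyme CD73 (2.81, SE 0.20, adjusted p = 4e-05), and include *Tnfrsf18*, the gene of GITR, at 2.42.

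Of 28 measured T cell receptor signalling genes 11 fell and 1 rose (*Nfatc2*, by 0.76), with a median of -0.35. Of the receptor chains, *Cd247*, the ζ chain, fell by 1.22 (SE 0.21, adjusted p = 0.00381), while the other chains did not pass, among them *Cd3d* at 13.22 and 13.08 against 13.06 and 13.13, and *Cd3e* at 13.14 and 13.29 against 12.92 and 13.06. The kinase *Zap70* read 9.89 and 9.93 against 9.96 and 9.94. Immediate early and stress genes fell furthest of all lists, with a median of -2.73 over 17 measured genes, of which 8 fell and 2 rose. The mean signal of this list was 10.13 and 10.18 in the naïve CD4+ arrays and 7.46 and 7.54 in the CM arrays. In the naïve CD8+ arrays the mean was 10.99 and 7.498. The high level was thus not shared by all naïve arrays of the series, and the cause was not tested. *Egr2*, induced by T cell receptor signals, read 10.97 and 11.05 in naïve, 4.60 and 5.10 in CM and 8.74 and 8.37 in EM cells. It fell by 6.16 in CM cells (SE 0.51, adjusted p = 8.95e-05) and was higher in EM than in CM cells by 3.71 (adjusted p = 0.00563). *Egr1* and *Egr3* fell by 3.41 each, *Egr1* from 12.76 and 12.82 to 9.31 and 9.44. The calls of *Hspa1b* (-8.75, adjusted p = 0.0264), *Fos* (-5.24, adjusted p = 0.0452), *Fosb* (-5.48, adjusted p = 0.0495) and *Nr4a1* (-4.64, adjusted p = 0.0406) were lost without either naïve CD4+ array, with adjusted p from 0.10 to 0.17, and without either CM array. Without either naïve CD8+ array 13 of the 17 fell, without either naïve CD4+ array or CM array 2 3 did, without CM array 1 4 did, and without any 1 EM array, CD4+ or CD8+, 5 did.

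Cell cycle genes rose almost without exception. All 25 measured mitosis and spindle genes rose, with changes from 1.13 to 6.62 and a median of 4.41, and 23 of 26 measured DNA replication genes rose, with a median of 1.77, against 13.5% of all genes. Without CM array 1 there were 23 and 21, and without CM array 2 there were 25 and 21. *Mki67*, the marker of cycling cells, rose from 4.61 and 4.28 to 8.44 and 7.78 (3.67, SE 0.25, adjusted p = 3.12e-05). *Ccnb2*, a mitotic cyclin, rose from 4.08 and 3.32 to 9.78 and 9.55 (5.96, SE 0.29, adjusted p = 6.03e-06). *Cdk1*, the kinase that starts mitosis, rose from 3.81 and 4.86 to 10.25 and 10.01 (5.80, SE 0.33, adjusted p = 1.3e-05), and *Ube2c*, of the anaphase promoting complex, from 5.09 and 3.44 to 10.31 and 9.96 (5.87, SE 0.48, adjusted p = 8.75e-05). In the replication list *Tk1*, thymidine kinase, rose by 5.03 and *Pola1*, of DNA polymerase α, by 1.88 (SE 0.28, adjusted p = 0.00197). The exceptions were *Mcm4* (11.48 and 11.49 against 11.54 and 11.94), *Pcna* (12.05 and 12.14 against 12.64 and 12.45) and *Gins1*, named after their values were seen. None of these replication and mitosis genes was called between EM and CM cells. The inhibitor *Cdkn1a*, the gene of p21, also rose, from 5.39 and 5.78 to 12.31 and 12.01 (6.57, SE 1.19, adjusted p = 0.00543).

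The promoters below were chosen because they hold letters known from cell cycle promoters, so their matches follow from the choice. The lists are of known cell cycle genes, and a part of these letters in the rise was not tested. Each line gives the 250 bases before the start in RefSeq on GRCm38.p6, 5′ to 3′ on the strand of the gene. In the mitosis genes capitals mark the NF-Y box, CCAAT, and the cell cycle homology region, CHR, TTTGAA, on either strand. In *Pola1* capitals mark the E2F letters searched.
*Ccnb2* (chr9:70421555-70421804, minus strand): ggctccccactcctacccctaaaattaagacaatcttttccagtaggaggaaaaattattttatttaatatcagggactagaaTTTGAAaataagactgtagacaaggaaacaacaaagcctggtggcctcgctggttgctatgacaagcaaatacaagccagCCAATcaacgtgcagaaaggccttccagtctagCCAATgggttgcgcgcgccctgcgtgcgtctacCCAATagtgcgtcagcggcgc
*Ube2c* (chr2:164769679-164769928, plus strand): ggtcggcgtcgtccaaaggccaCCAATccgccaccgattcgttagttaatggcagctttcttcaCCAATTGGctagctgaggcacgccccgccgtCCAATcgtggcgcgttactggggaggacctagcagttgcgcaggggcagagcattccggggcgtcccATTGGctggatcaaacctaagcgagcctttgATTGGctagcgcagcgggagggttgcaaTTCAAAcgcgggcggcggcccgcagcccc
*Cdk1* (chr10:69352913-69353162, minus strand): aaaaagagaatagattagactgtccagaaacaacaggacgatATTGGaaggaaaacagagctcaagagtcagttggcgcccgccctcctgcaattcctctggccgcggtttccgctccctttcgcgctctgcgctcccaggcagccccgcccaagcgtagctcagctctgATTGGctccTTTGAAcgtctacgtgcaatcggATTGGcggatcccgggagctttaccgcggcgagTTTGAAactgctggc
*Pola1* (chrX:93632156-93632405, minus strand): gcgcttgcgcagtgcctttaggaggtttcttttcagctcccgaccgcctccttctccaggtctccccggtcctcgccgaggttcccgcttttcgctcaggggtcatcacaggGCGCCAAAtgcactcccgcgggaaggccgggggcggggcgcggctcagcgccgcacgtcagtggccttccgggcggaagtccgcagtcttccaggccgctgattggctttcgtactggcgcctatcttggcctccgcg

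Of 14452 genes with a promoter of 300 bases, from 250 before to 50 after the start, 38.2% hold CCAAT on either strand, 13.3% hold TTTGAA and 5.37% hold both. Of the 20 mitosis genes with a promoter, 16 (80%) hold CCAAT, 15 (75%) hold TTTGAA and 14 (70%) hold both. CCAAT is also in 14 of 21 replication genes (66.7%) and in 13 of 16 cholesterol and fatty acid synthesis genes (81.25%). It is thus not particular to the mitosis list. The E2F motif, TTTGGCGC or TTTCCCGC, is in 2.52% of all promoters, in 8 of 21 replication genes (38.1%) and in none of the 20 mitosis genes. Over the 1983 genes with a promoter that rose in CM cells these shares were 39.1% for CCAAT, 13.4% for TTTGAA and 3.73% for E2F. A match describes these letters and no binding.

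Genes of sugar use rose as well. Of 19 measured glycolysis and hypoxia genes 18 rose, with a median of 2.35, and none was called between EM and CM cells. *Hk2*, the hexokinase that traps glucose, rose from 5.36 and 4.71 to 11.58 and 11.59 (6.55, SE 0.26, adjusted p = 2.47e-06). *Slc16a3*, a lactate exporter, rose by 6.09 (SE 0.13, adjusted p = 2.15e-07) to 10.94 and 11.05, and *Egln3*, an oxygen sensor induced by HIF, by 7.10 (SE 0.34, adjusted p = 5.61e-06) to 12.68 and 12.73. The bright members rose less in log2 terms: *Ldha*, lactate dehydrogenase, went from 12.42 and 12.35 to 13.54 and 13.47 (1.12, SE 0.17, adjusted p = 0.00204). The exception, *Pdk1*, which holds pyruvate back from oxidation in the mitochondrion, read 12.36 and 12.34 against 12.01 and 12.10.

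Of 21 measured cholesterol and fatty acid synthesis genes 13 rose and none fell, with a median of 0.75, or 8 rose with only the 4 arrays in the fit, and 5 were higher again in EM cells, or 3 without CM array 2 and 2 without EM array 1. *Scd1*, a fatty acid desaturase, rose from 3.42 and 2.96 to 10.52 and 9.93 (7.04, SE 0.95, adjusted p = 0.0012). Of 22 measured respiratory chain genes 1 rose and 2 fell (median 0.13), and of 19 fatty acid oxidation genes 7 rose and 3 fell, or 1 fell without either naïve array. The respiratory chain shares, 4.55% higher and 9.09% lower, lay below the 13.5% and 9.78% of all genes. *Ndufa4*, of the respiratory chain, fell by 1.85, from 9.55 and 9.62 to 7.92 and 7.55. *Myc*, a driver of growth, rose by 0.76 (SE 0.12, adjusted p = 0.00291), from 8.11 and 8.01 to 8.81 and 8.84, and of 25 measured ribosome biogenesis and Myc genes 2 rose and 5 fell, *Odc1*, of polyamine synthesis, at 2.21 and *Nolc1*, a nucleolar protein, at -2.10 being the largest changes, or 1 fell without naïve array 1, and 1 rose and 2 fell without naïve array 2. Of 20 amino acid transport and ATF4 genes 7 rose, led by *Asns*, asparagine synthetase, at 6.09, or 3 rose without CM array 1 or naïve array 2.

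Of 26 measured interferon-stimulated genes 13 rose and 6 fell, or 3 fell without either naïve array, with a median of 0.76. The interferon response element, ISRE, is in 60% of the 20 promoters of this list and in 3.02% of all promoters. The membrane proteins *Ifitm1*, *Ifitm2* and *Ifitm3*, which block virus entry, rose by 7.83, 8.55 and 7.25, *Ifitm2* from 3.81 and 4.34 to 12.56 and 12.68 (SE 0.27, adjusted p = 8.66e-07). Probe sets of these close copies may share signal. *Gbp2*, a GTPase of the interferon-γ response, rose by 1.99. *Ifit1*, a sensor of viral RNA ends, fell from 9.25 and 9.20 to 6.72 and 5.87 (-2.94, SE 0.31, adjusted p = 0.000315), and *Rsad2*, the gene of viperin, by 2.96.

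Of 15 measured NF-κB genes 6 rose and 1 fell, or 4 rose without CM array 1 or naïve array 1, and 8 rose and 4 fell without either naïve CD8+ array. *Nfkb2*, of the alternative pathway, rose by 2.62, but by the mean of its probe sets the change was 0.74 and not called (adjusted p = 0.055). The fall of *Rel* (-3.03, adjusted p = 0.0414) was lost without any 1 CM, EM or naïve CD4+ array. Of 17 measured BCL-2 family and survival genes 3 rose (17.6%) and 2 fell (11.8%), near the 13.5% and 9.78% of all genes. These counts were 5 and 0 without CM array 1, 2 and 0 without naïve array 2, 1 fall without CM array 2, naïve array 1 or any 1 EM array, and 6 rises without either naïve CD8+ array. *Bcl2*, which blocks apoptosis, rose by 0.85 (SE 0.15, adjusted p = 0.0053), from 11.68 and 11.43 to 12.54 and 12.26, and *Pmaip1*, the gene of the death-promoting protein Noxa, by 4.70 (SE 0.31, adjusted p = 2.64e-05) to 10.19 and 10.34. Of 8 measured GIMAP genes, GTPases of lymphocyte survival, 1 rose and 3 fell, or 1 fell without CM array 1 or either naïve array.

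Genes of antigen presentation and some B cell genes were higher in CM cells. Of 8 measured MHC class II genes 6 rose, with a median of 4.51, and 1 fell, *H2-Ob* of the inhibitor H2-O (-0.63), a call lost without CM array 1 or either naïve array. *H2-Ab1*, a class II chain, rose from 5.41 and 5.73 to 11.86 and 11.91 (6.31, SE 0.81, adjusted p = 0.000911), and *Cd74*, the invariant chain, from 6.96 and 6.48 to 12.36 and 12.17 (5.55, SE 0.88, adjusted p = 0.00278). *Ciita*, the master factor of class II genes, stayed dim at 3.65 and 4.09 against 4.16 and 4.06. Of 17 measured B cell genes 7 rose, with a median of 0.81, or 4 without naïve array 2, and 1 fell, *Bank1*, an adaptor of B cell receptor signals (-1.75), a call lost without naïve array 1. *Ebf1*, a B lineage factor, rose from 3.71 and 2.93 to 10.82 and 10.19 (7.19, SE 0.62, adjusted p = 0.000106), or by 3.28 with the mean of its probe sets. *Cd79b*, of the B cell receptor, rose by 4.40 (SE 0.31, adjusted p = 4e-05) to 8.89 and 8.59. The defining gene *Pax5* stayed dim, at 3.62 and 3.62 against 4.33 and 4.07 (0.58, adjusted p = 0.041), a call lost without CM array 1, either naïve array or either CD8+ EM array. *Ms4a1*, the gene of CD20, read 3.26 and 3.23 against 5.88 and 6.78 and did not pass (adjusted p = 0.0641).

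The summed signal of the 17 B cell genes, on the log2 scale, was 11.997 and 11.89 in the naïve arrays, 12.83 and 12.34 in the CM arrays and 12.02 and 11.92 in the EM arrays. The number of them at 6 or above was 4 and 3, 11 and 9, and 7 and 6. For the 8 class II genes the sums were 11.27 and 11.08, 14.13 and 14.16, and 14.44 and 14.30. An immunoglobulin κ variable gene rose by 7.91, to 10.22 and 10.03, on a probe set that may match several genes, and changed by -0.29 (adjusted p = 0.308) on the others. *Ighm*, the μ heavy chain, was bright in every array, at 11.36 and 11.30 in naïve and 10.95 and 10.37 in CM cells. *Eif2s3y*, of the Y chromosome, read 2.87 and 2.84 in naïve and 6.54 and 6.54 in CM cells, while *Kdm5d* and *Uty*, also of the Y chromosome, read at most 2.86 on all 4 arrays and *Xist*, of the inactive X, at least 12.36. Among myeloid markers *S100a8* and *S100a9* fell by 5.03 and 4.39, from 8.11 and 9.45, and from 7.71 and 9.81, in the naïve arrays. Of 14 myeloid markers these 2 fell and 2 rose, *Cd68* by 1.77 and *Adgre1*, the gene of F4/80, by 3.93, with 1 rise left without either naïve array. The myeloid shares, 14.3% higher and 14.3% lower, lay near the 13.5% and 9.78% of all genes. The part of B lineage, lymphoma or myeloid RNA in any result was not tested.

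**Figure D4:**
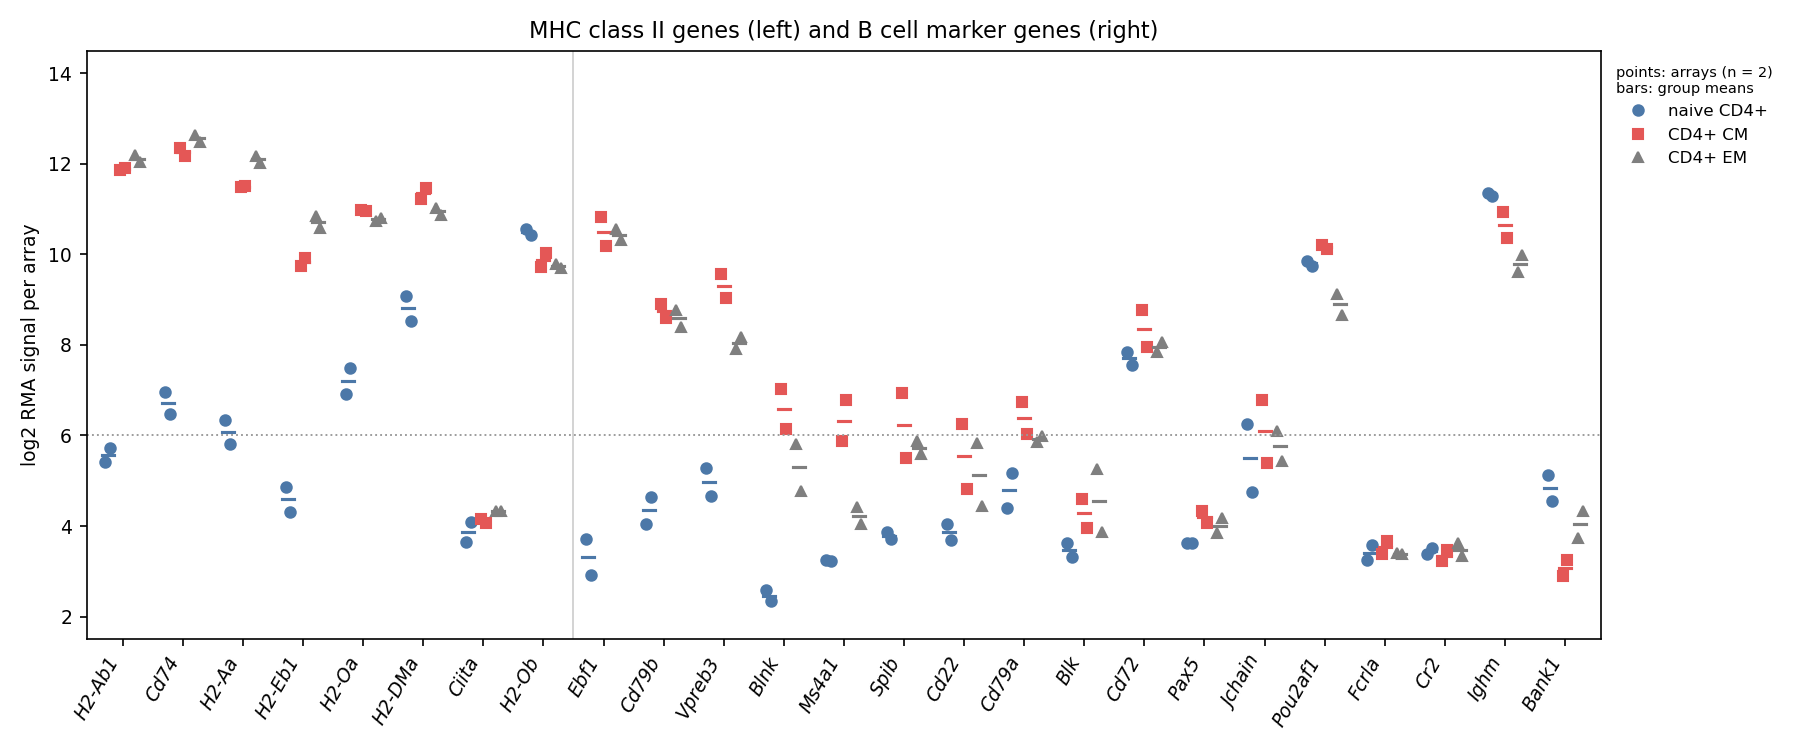
Log2 signal per array (y axis) of the measured MHC class II genes (left of the line) and B cell marker genes (right) on the x axis in naïve CD4+, CM and EM cells, 2 arrays a group as points with the group mean as a bar; the dotted line is the limit of 6. H2-Ab1, Cd74, H2-Aa and H2-Eb1 lie high in CM and EM cells, Ciita and Pax5 lie below 6 on every array, and Blnk, Vpreb3 and Ms4a1 of both CM arrays lie above both EM arrays.

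The 12 largest rises among all genes include, beside *Gzmb*, *Ccl22*, *S100a6*, *Ifitm2* and an immunoglobulin κ variable gene, genes of no list. *AA467197*, a small mitochondrial protein, rose from 4.25 and 3.71 to 13.56 and 13.58 (9.59, SE 0.48, adjusted p = 6.61e-06). *Ubd*, the ubiquitin-like FAT10, rose from 3.44 and 3.71 to 12.33 and 12.51 (8.85, SE 0.15, adjusted p = 1.04e-07), and *Tgm2*, a transglutaminase, from 5.77 and 4.72 to 13.53 and 13.43 (8.23, SE 0.36, adjusted p = 3.45e-06). *H2-DMb2*, a class II peptide loader, rose by 8.08, *Enah*, an actin regulator, by 8.02, *Ak4*, an adenylate kinase, by 8.02 and *Emilin2*, a matrix glycoprotein, by 7.95. With the mean of all probe sets the changes of *Enah* and *Ak4* were 4.19 and 3.31.

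The 12 largest falls hold 4 immediate early and stress genes (*Hspa1b*, *Egr2*, *Fosb* and *Fos*), *Maf* and *S100a8*. *Sox4*, a factor of immature lymphocytes, fell from 10.28 and 10.46 to 3.64 and 2.38 (-7.36, SE 0.55, adjusted p = 5.36e-05) and *Rnf144a*, a ubiquitin ligase, from 10.61 and 10.57 to 3.84 and 4.63 (-6.36, SE 0.23, adjusted p = 1.7e-06). Averaged over all probe sets these changes were -2.17 and -2.50. *Xkrx* fell by 5.43 and *Slc16a5*, a transporter of the monocarboxylate family, by 4.79. *Klrd1*, the CD94 chain of NK receptors, fell from 10.25 and 10.21 to 5.86 and 4.46 (-5.07, SE 0.40, adjusted p = 6.92e-05) and lay at 8.15 and 8.59 in EM cells.

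Fewer genes were higher in CM than in EM cells, with 7 at least 8-fold against 99 the other way. Beside *Il6ra*, the largest was *Pdlim4*, a cytoskeletal adaptor, at 10.31 and 9.99 in naïve, 10.78 and 10.53 in CM and 6.61 and 7.06 in EM cells (-3.82 from CM to EM, SE 0.31, adjusted p = 0.000462). *Amigo2*, an adhesion protein, read 10.005 and 9.98, 10.29 and 10.66, and 7.40 and 7.58 in that order (-2.98, SE 0.25, adjusted p = 0.000543). For both genes CM against naïve did not pass the test (adjusted p = 0.305 and 0.222). *Atp1b1*, of the sodium pump, stepped from 12.33 and 12.45 to 8.90 and 9.19 and to 4.97 and 5.92, while the 1 probe set left without those that can match several transcripts is dim on all arrays and changed by -0.22 and -0.14. *Rtp4* and *Usp18*, of the interferon response, changed by -1.996 and -1.41 from CM to EM, and both calls were toward lower EM signal. With only the CM and EM arrays in the fit 223 genes were called, 180 higher and 43 lower in EM cells, and without EM array 1 or 2 there were 490 (385 and 105) and 542 (414 and 128). Without either CD8+ EM array 177 were lower in EM cells. With the arrays centred on respiratory chain genes 55.5% of the calls were higher in EM cells (527 and 423), against 70.3% as deposited.

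The CM arrays also differed from each other. Of the 1253 genes that differed at least 2-fold between the CM arrays 671 had a mean of 6 or above, 427 of them higher on array 1 and 244 higher on array 2. *Itgae*, the CD103 integrin of cells that lodge in epithelium, read 5.31 and 8.62 in the CM arrays, 5.09 and 5.21 in naïve and 10.25 and 10.57 in EM cells. *Nxpe4* and *Dsg2*, a desmosomal cadherin, read 7.23 and 2.77, and 7.48 and 3.16. *Ackr3*, a scavenger of chemokines, read 2.68 and 6.62. The B cell list lay above the naïve mean by a median of 1.27 on CM array 1 and 0.49 on CM array 2, and the regulatory T cell list by 0.84 and 2.01.

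**Figure D5:**
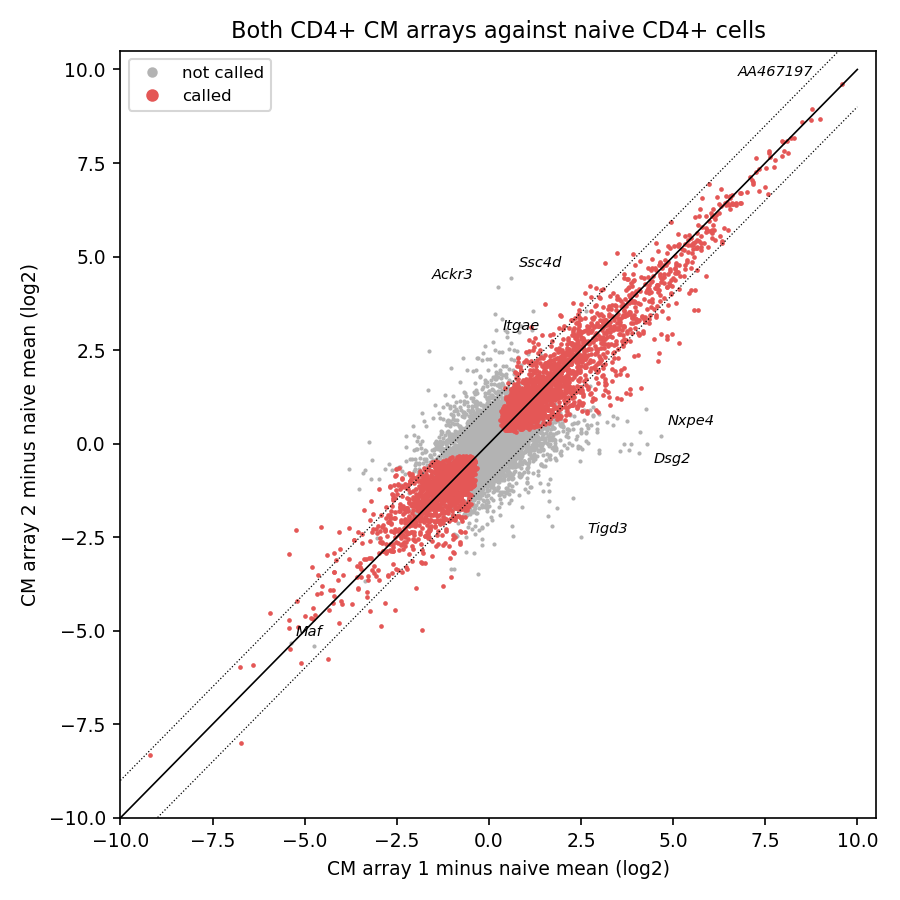
Log2 difference of CM array 1 (x axis) and CM array 2 (y axis) from the mean of the 2 naïve CD4+ arrays, 1 point a gene; red points passed the adjusted p of 0.05, the solid line marks equal values and the dotted lines a 2-fold difference between the CM arrays. Tigd3, Nxpe4, Dsg2, Itgae, Ssc4d and Ackr3 lie far from it and were not called.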

How the data were processed

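Total RNA of 10 samples in 5 groups of 2 (naïve CD4+, CM CD4+, EM CD4+, naïve CD8+ and EM CD8+ mouse T cells) was labelled with a 3′ kit and hybridised to Affymetrix mouse expression arrays with 1 colour. The authors normalized the arrays with the RMA method of BRB-ArrayTools (version not given in the sources used here) and deposited log2 signals, which were used as deposited (range 1.68 to 14.86, array medians 4.65 to 4.75). The number of arrays limits the precision.

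Of 45101 probe sets 34945 had a single gene symbol in GEO's platform annotation, 932 had several, 9160 had none and 64 were controls. Symbols were updated through the Entrez ID for 34741 of them. The brightest probe set by its mean across the 10 arrays stood for each of the 18193 genes, of which 9010 have more than 1. A group-means model over all 10 arrays (5 residual degrees of freedom) was fitted with limma 3.58.1 in R 4.3.3, with eBayes and Benjamini-Hochberg adjustment over all genes. It was run on simulated data in which all groups had the same spread for each gene. That run cannot show how the calls hold where groups differ in spread, as they do here. A gene was called at an adjusted p under 0.05. All adjusted p-values are from limma.

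The genes and lists were chosen with earlier results of these data known. The named genes were drawn from a fixed set of T cell genes and from up to 4 called members of each list. Further sets were the 12 largest rises and falls of CM against naïve cells and the 10 largest of EM against CM cells. Both were taken among called genes without overlap. The last set was the 10 genes that differed most between the CM arrays in each direction. Not every gene of these sets is named in the text. Other genes were chosen after their values were seen. Promoters are RefSeq sequences on GRCm38.p6 from a table that matched 14452 of the 18193 genes. The alternatives, the leaving out of each array and the replicate block are given in the closing section. Some items are not reported here.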

Additional observations from a re-analysis of the deposited data

Results flagged for a closer look

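A signal was present in data outside the comparison of named genes. Of 10092 probe sets without a single gene symbol, 1647 (16.3%) passed an adjusted p of 0.05 in limma between CM and naïve CD4+ cells, 455 higher and 1192 lower in CM cells. The share is below the 23.2% of the named genes, of which more rose (2448) than fell (1779). They are not named here.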

How the results depend on the processing

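Genes called between CM and naïve cells ranged from 2575 to 4497 when single arrays were left out (higher from 1617 to 2571, lower from 958 to 1926), and with only the 4 arrays compared 1151 were lower. Between EM and CM cells these ranges were 490 to 1140, 385 to 797 and 105 to 373; with only the 4 arrays compared 223 genes were called, 180 higher and 43 lower, and with array weights 166 were lower. Whether same-numbered arrays share an origin is not stated. Their deviations correlated between -0.04 and 0.03 over all genes, dim ones included, which cannot exclude a pairing. With the replicate block 4047 genes were called between CM and naïve cells (2318 higher, 1729 lower). Between EM and CM cells the block gave 908 (649 higher, 259 lower). Centring the arrays on respiratory chain genes moved the median of all genes between EM and CM cells from -0.03 to -0.17. The other counts stayed within 1.5 times.

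Of the 285 genes followed, 209 were called between CM and naïve cells, and 154 of these kept their call and direction in every alternative that tested them. Between EM and CM cells 80 were called and 38 kept. Over all genes and alternatives 221 values of the first comparison lost a call and 68 gained one, against 160 and 90 in the second.

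Without probe sets that can match several transcripts, *Id2* (-0.17), *Tsc22d3* (0.087) and an immunoglobulin κ variable gene (-0.29) changed direction between CM and naïve cells. *Nudt12* did so without CM array 2 (-1.64, against 2.46 without CM array 1) and *Capn3* without CM array 1 (1.45, against -1.64 without CM array 2). Between EM and CM cells *Id2* did so with the variation filter of the study (0.93), which represents a gene by another probe set where the brightest one is removed, and *Dsg2* (1.46) and *Rab32* (-1.25) without CM array 1, against -2.86 and 1.88 without CM array 2. The cause was not tested. RMA compresses differences at low signal: 559 of the called genes had both means under 6.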

Other observations

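Surface receptors of effector and memory cells moved in both directions in CM cells. Of 19 measured genes 7 rose and 3 fell, or 1 fell without naïve array 1. *Itgb1*, the integrin β1 chain, rose from 7.48 and 7.96 to 9.07 and 9.56 (1.59, SE 0.25, adjusted p = 0.00271), and *Fas*, the death receptor, rose by 1.29. *Itga4*, the integrin α4 chain, fell from 11.97 and 11.84 to 10.74 and 10.24 (-1.41, SE 0.19, adjusted p = 0.00104), and *Cd48*, an adhesion molecule, changed by -1.20 (adjusted p = 0.01). *Cd80*, a ligand of CD28, rose by 1.91 and was higher again in EM cells by 1.77.

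Of 15 measured CDK inhibitor and BTG genes 3 rose and 4 fell, or 2 fell without either CM array and 1 without either naïve array. Beside *Cdkn1a*, the rises were *Cdkn3*, a phosphatase of CDKs, from 2.69 and 3.67 to 8.59 and 8.30 (5.27, SE 0.34, adjusted p = 2.52e-05), and *Cdkn2c*, the gene of p18, by 2.28. *Btg2*, an antiproliferative gene of resting lymphocytes, fell from 9.91 and 10.03 to 8.69 and 8.23 (-1.51, SE 0.24, adjusted p = 0.00261). Of 7 measured CD8 T cell genes 1 rose (*Runx3*) and 2 fell (*Klrd1* and *Crtam*), or 1 fell without either naïve array. Of 7 measured NK, NKT and γδ T cell genes none rose, or 1 without CM array 1, and 1 fell, *Cd1d1*, by 2.05. None of 5 measured erythroid genes was called, or 1 rose without CM array 2.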
